A study of Rattus norvegicus with 23 samples.

Results

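All rats that had taken methamphetamine (METH) were compared with all saline control (CT) rats, whatever their later response to footshock. The members were chosen by group label alone, and they are 17 METH libraries and 6 CT libraries, which together make up all 23 libraries, 1 per rat. All were adult male wild-type Long Evans rats, and the RNA came from the dorsal striatum (dSTR). The METH rats had taken 0.1 mg/kg METH per infusion for 9 h a day over 22 days of training by the study's results and supplement (the main methods give a shorter training), and the CT rats had taken saline. METH rats then met footshocks of 0.18 to 0.36 mA on 50% of reinforced presses over 8 days. After 15 days of abstinence they returned to self-administration for 12 days, with footshocks of 0.30 mA on 3 days. The 17 METH rats comprised 6 always shock-resistant (ASR) rats, 5 delayed shock-resistant (DSR) rats, labelled resurgence, and 6 rats that stayed shock-sensitive (AS). Tissue was taken a day after a relapse test that followed a second withdrawal. The CT rats received no footshocks, so a history of METH and a history of footshock cannot be told apart in this comparison.

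METH enters dopamine terminals, displaces dopamine from its vesicles and drives it out through the dopamine transporter. The dSTR receives dense dopamine input from the substantia nigra and takes part in habit formation and compulsive responding. Most of its neurons are GABAergic projection neurons that carry either D1-type or D2-type dopamine receptors. A difference in bulk RNA from this tissue can reflect fewer cells of a type or less RNA per cell, and these cannot be told apart here.

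Genes are given by Ensembl identifier with the Rnor6.0 coordinates of the count tables, because no key to gene symbols was at hand. For the same reason the tissue label could not be checked against marker genes, and the part that other cell types play in any difference was not tested.

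Total counts ranged from 18967015 to 23248971 in CT rats and from 19921481 to 28137676 in METH rats. The METH mean was 24039334 and the CT mean 21797669 (exact two-sided permutation p = 0.0405, adjusted p = 0.212 over 6 library measures). Genes of the mitochondrial chromosome took 11.65 to 13.4% of counts in CT rats and 11.68 to 19.58% in METH rats (exact permutation p = 0.168, adjusted p = 0.212). The first principal component of log2 CPM (counts scaled to a common library size) carried 30.2% of the variance. CT rats lay between -45.1 and 25 on it and METH rats between -49.3 and 37.8, so the arms overlapped over nearly their whole range (exact permutation p = 0.177, adjusted p = 0.212). AS rats lay at the high end, from -0.204 to 37.8, and DSR rats spread from -49.3 to 20.4. The arm accounted for 6.14% of the total sum of squares of log2 CPM over the genes tested, and the division into 4 groups for 21.1%. Any division of the rats takes up some of this sum, and a finer one takes up more. These shares are therefore no test of arm or phenotype.

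**Figure D1:**
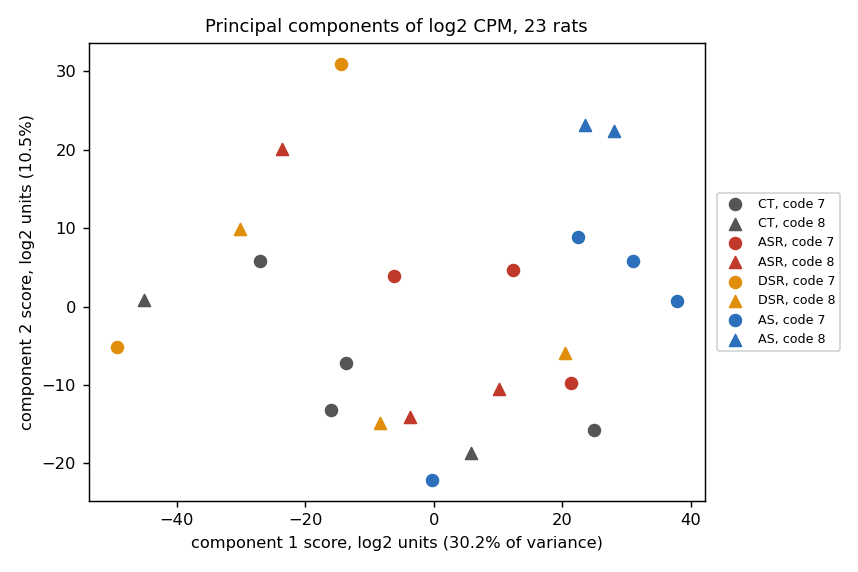
Scores of the 23 rats on the first principal component of log2 CPM (x axis) and the second (y axis). Colours mark CT, ASR, DSR and AS rats, and circles and triangles mark rats whose code holds 7 or 8. CT rats lie among the METH rats, and 5 of the 6 AS rats lie above 22 on the first component.

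No gene passed an adjusted p of 0.05 in METH vs CT. Of 32552 listed genes, 16127 had enough counts to be tested with edgeR's quasi-likelihood test, and 0 of them passed (0%), with a smallest adjusted p of 0.529. DESeq2 and limma voom, the latter run with a quality weight per library, also called 0 genes, with smallest adjusted p of 0.072 and 0.338. Across the alternatives that kept or left out libraries, genes or covariates, the smallest adjusted p ran from 0.0439 to 1. Without adjustment, 1325 genes (8.22%) had a p under 0.05 in edgeR, where 5% of the genes tested would be 806. DESeq2 gave 1400 such genes and limma voom 1850. Of the 1325, 530 were higher in METH rats (3.29% of genes tested) and 795 were lower (4.93%). This excess of lower genes was not seen in smaller sets of rats. Rats whose code holds 8, of which 2 were CT rats, gave 693 genes (4.3%), 430 higher and 263 lower. Those with 7 gave 541 (3.35%), 276 higher and 265 lower. Without the AS rats there were 737 (4.57%), with 400 higher and 337 lower. Each of these totals was under 5% of the genes tested, so their order is not read as a reversal.

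The higher and the lower genes differed in size and level. For the 530 higher genes the median log2 fold change was 0.26 at a median level of 9.25 CPM, and 33.4% of them lay under 4 CPM. For the 795 lower genes it was -0.17 at a median level of 39.4 CPM, and 36.4% of them lay at 64 CPM or more. Among all genes tested, 24.9% lay under 4 CPM and 20.8% at 64 CPM or more. Most of the lower genes differed by a small margin, as 566 of 795 (71.2%) lay within 1.2-fold. Of the higher genes 267 of 530 (50.4%) did, and of all genes tested 87.9%. Differences of at least 1.5-fold with an unadjusted p under 0.05 were seen in 86 genes higher in METH rats (0.533%) and 69 lower (0.428%). At least 2-fold, there were 11 higher and 10 lower. Of the 86 and 69 genes, 56 and 33 lay under 1 CPM, where counting error is largest. Of all 328 genes that differed by at least 1.5-fold, whatever their p, 177 lay under 1 CPM. Over all 16127 genes tested, 1760 did.

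No gene separated the arms. With TMM-scaled CPM, no gene had every METH rat above every CT rat (0%), and none had every METH rat below every CT rat (0%). With CPM per total counts, 1 gene had all METH rats above all CT rats, ENSRNOG00000027540, described next. Its lowest METH value was then 8.66 CPM and its highest CT value 8.36 CPM, from 197 and 192 reads.

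The 2 genes with the smallest p in each direction are described rat by rat. They were chosen after their values were seen, so their p-values describe how they were picked and are no independent test. All 4 had an edgeR adjusted p of 0.529.

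ENSRNOG00000027540 (chr2:211772128-211831636, minus strand, 11 exon blocks) was higher in METH rats. Its TMM-scaled levels in the 6 CT rats were 7.22, 7.74, 7.75, 7.76, 8.28 and 8.32 CPM. In the 17 METH rats they ran from 8.26 to 12.5 CPM with a median of 9.79 CPM. Only 1 METH rat, an AS rat at 8.26 CPM, lay within the CT range, and the other 16 lay above all CT rats. The METH mean was 9.77 ± 0.974 CPM (SD, n = 17) and the CT mean 7.85 ± 0.407 CPM (SD, n = 6), a log2 fold change of 0.32 (SE 0.0685, edgeR unadjusted p = 0.000106). The exact two-sided permutation p over 100947 divisions of the rats was 2.97e-05. The phenotypes lay close together, with log2 fold changes against CT of 0.34 in ASR, 0.33 in DSR and 0.28 in AS rats (edgeR p among the 3 phenotypes = 0.81). The ASR rats were the most spread, with means of 9.92 ± 1.49 CPM in 6 ASR, 9.84 ± 0.552 CPM in 5 DSR and 9.56 ± 0.704 CPM in 6 AS rats. Rats whose code holds 7 had 9.66 CPM with METH and 7.89 CPM with saline, and those with 8 had 9.88 and 7.76 CPM.

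ENSRNOG00000006151 (chr4:109467272-109470510, plus strand, 6 exon blocks) was a rarely counted gene with the largest fold of the 4. The CT rats had 0.345, 0.466, 0.572, 0.59, 0.6 and 0.654 CPM. The METH rats ran from 0.517 to 1.93 CPM with a median of 1.04 CPM. A DSR rat at 0.517 CPM and an ASR rat at 0.596 CPM lay within the CT range, and the other 15 METH rats lay above it. These levels rest on 8 to 39 reads per rat. The METH mean was 1.05 ± 0.317 CPM (SD, n = 17) and the CT mean 0.538 ± 0.113 CPM (SD, n = 6), a log2 fold change of 0.96 (SE 0.216, edgeR unadjusted p = 0.000167). The exact permutation p was 0.000158. Log2 fold changes against CT were 1.06 in ASR, 0.66 in DSR and 1.07 in AS rats. Rats whose code holds 7 had 1.02 CPM with METH and 0.494 CPM with saline, and those with 8 had 1.09 and 0.627 CPM. Within the rats with 8 alone, where 2 CT rats remain, the log2 fold change was 0.79 and the edgeR unadjusted p 0.11.

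ENSRNOG00000003779 (chr13:89718066-89721454, plus strand, 4 exon blocks) was lower in METH rats by a small but even margin. The CT rats had 25.3, 26.9, 27.3, 27.7, 28.6 and 28.7 CPM. The METH rats ran from 22.5 to 26.2 CPM with a median of 24.4 CPM. The METH rats lay below all CT rats in 14 of 17 cases, and the other 3, 2 ASR rats and an AS rat, lay between 25.7 and 26.2 CPM. The METH mean was 24.5 ± 0.975 CPM (SD, n = 17) and the CT mean 27.4 ± 1.27 CPM (SD, n = 6), a log2 fold change of -0.16 (SE 0.0352, edgeR unadjusted p = 9.11e-05). The exact permutation p was 4.95e-05. The phenotypes had log2 fold changes of -0.17 in ASR, -0.18 in DSR and -0.15 in AS rats. All 5 DSR rats lay within 23.5 to 24.7 CPM. Rats whose code holds 7 had 24.3 CPM with METH and 26.8 CPM with saline, and those with 8 had 24.7 and 28.7 CPM.

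ENSRNOG00000022307 (chr5:173340060-173354755, plus strand, 25 exon blocks) was the most highly counted of the 4 and was lower in METH rats. The CT rats had 149, 153, 153, 159, 165 and 171 CPM. The METH rats ran from 124 to 156 CPM with a median of 138 CPM, and 16 of 17 lay below all CT rats. The exception was a DSR rat at 156 CPM. The count rests on a narrow gap, as AS rat Grp7-L10 and the lowest CT rat both stood at 149 CPM after rounding. It also rests on the scaling. With CPM per total counts, ASR rat Grp7-L4 and CT rats Grp7-L7 and Grp7-R12 all stood at 151 CPM. The METH mean was 137 ± 9.38 CPM (SD, n = 17) and the CT mean 158 ± 8.27 CPM (SD, n = 6), a log2 fold change of -0.21 (SE 0.0456, edgeR unadjusted p = 0.000107). The exact permutation p was 8.92e-05. The phenotypes were less alike for this gene, with log2 fold changes of -0.20 in ASR, -0.14 in DSR and -0.28 in AS rats (edgeR unadjusted p among phenotypes = 0.0385, adjusted p = 0.297). In AS rats 5 of 6 values lay between 124 and 129 CPM and the last at 149 CPM. Rats whose code holds 7 had 136 CPM with METH and 155 CPM with saline, and those with 8 had 137 and 165 CPM.

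**Figure D2:**
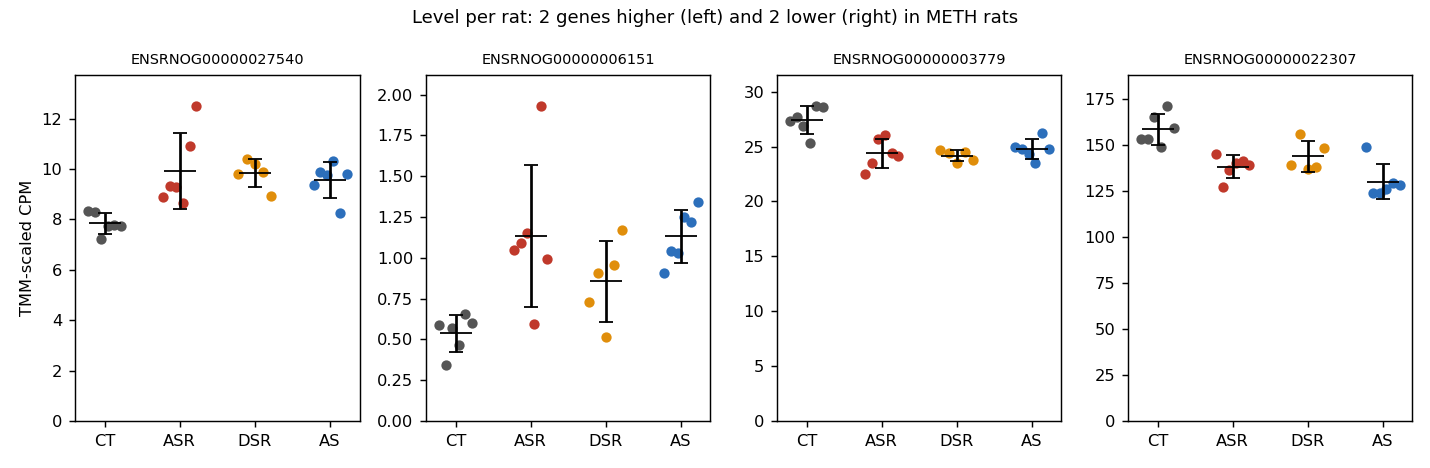
TMM-scaled CPM (y axis, from 0) of 4 genes in each rat (points) of the CT, ASR, DSR and AS groups, with the group mean and SD (bars). ENSRNOG00000027540 had 16 of 17 METH rats above all CT rats, and ENSRNOG00000022307 had 16 of 17 below all CT rats. For the latter gene, AS rat Grp7-L10 and the lowest CT rat both stood at 149 CPM after rounding.

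Genes were next grouped by their mean level over the 23 libraries, a grouping chosen after the data were seen and described without a test. The level is CPM and not corrected for gene length, so it ranks genes by their share of reads. Among the 3360 genes at 64 CPM or more, 289 (8.6%) were lower in METH rats with an unadjusted p under 0.05 and 53 (1.58%) were higher, beside 4.93% and 3.29% of all genes. Among the 554 genes at 256 CPM or more, 49 were lower and 2 higher. The direction of the counts turned around among rarely counted genes. Under 4 CPM, 177 of 4012 genes (4.41%) were higher in METH rats and 99 (2.47%) were lower.

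The shifts behind these counts were small. The median log2 fold change was -0.02 at 64 CPM or more and 0.05 under 4 CPM, beside 0.0016 over all genes tested. In single rats, the median deviation of genes at 64 CPM or more from their mean over all rats ran from -0.0186 to 0.0823 in CT rats and from -0.0428 to 0.0469 in METH rats, on the log2 scale. The arms therefore overlapped. The highest value, 0.0823, was that of CT rat Grp8-L11, and without this rat the lower genes at 64 CPM or more numbered 148 in place of 289. Without CT rat Grp7-R5, which had the lowest CT value, they numbered 463 and the higher ones 105 in place of 53. They numbered 158 without CT rat Grp7-R6. Without DSR rat Grp7-R7 they numbered 452, and the higher ones 87. With the mitochondrial share of counts as a covariate they numbered 191, and the higher ones 25.

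**Figure D3:**
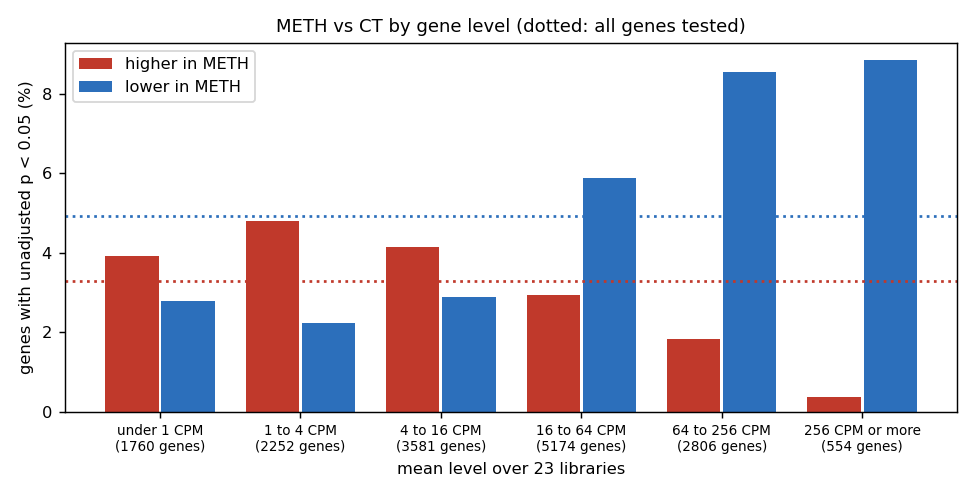
Share of genes with an unadjusted p under 0.05 (y axis, percent) that were higher (red) or lower (blue) in METH than CT rats, by mean CPM of the gene (x axis). Dotted lines give the shares over all genes tested, 3.29% and 4.93%. Lower genes reach 8.84% at 256 CPM or more, where higher genes make up 0.361%.

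The comparisons of the 3 phenotypes with CT share the CT rats, so their values are set side by side. At 64 CPM or more, 798 of 3360 genes (23.8%) were lower than in CT rats among AS rats, 150 (4.46%) among ASR rats and 72 (2.14%) among DSR rats. The genes higher numbered 206 in AS, 18 in ASR and 54 in DSR. The share of lower genes over all genes tested was 13.5% in AS, 2.78% in ASR and 2.11% in DSR, and the share of higher genes 8.19%, 2.14% and 2.48%. In the pooled comparison, the lower and higher genes at 64 CPM or more numbered 77 and 36 without the AS rats, 198 and 46 without the ASR rats, and 601 and 127 without the DSR rats. Rats whose code holds 7 gave 56 lower and 19 higher, and those with 8 gave 70 and 29.

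Genes were also grouped by the length of genome they span, a grouping that was not planned and is described without a test. Genes of 2 to 10 kb had 279 of 3786 (7.37%) lower in METH rats and 110 (2.91%) higher, beside 4.93% and 3.29% of all genes. The phenotypes were not alike in this. Against CT, 12.8% of these genes were lower in AS rats, 4.12% in ASR and 3.35% in DSR rats. Over all genes tested the shares were 13.5%, 2.78% and 2.11%. The shortest genes, under 2 kb, lay near the shares of all genes, with 65 of 1592 (4.08%) lower and 51 (3.2%) higher. At 30 to 100 kb the counts were nearly even, with 145 of 4096 (3.54%) lower and 163 (3.98%) higher. Among genes of 64 to 256 CPM, 240 of 2806 (8.55%) were lower over all spans. At 2 to 10 kb 80 of 566 (14.1%) were lower, and at 100 to 500 kb 15 of 403 (3.72%). For all genes of 2 to 10 kb at 64 CPM or more, the median log2 deviation of single rats overlapped between the arms. It ran from -0.0256 to 0.0511 in CT rats and from -0.0733 to 0.0444 in METH rats. The counts by span were not repeated with rats left out.

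In the longest genes the phenotypes had medians of opposite sign. Over the 112 genes of 500 kb or more the pooled median was -0.02 on the log2 scale. Of these genes 5 (4.46%) were lower and 2 (1.79%) higher, beside 4.93% and 3.29% of all genes. The median was -0.13 in AS, -0.03 in ASR and 0.06 in DSR rats. In AS rats 34 of the 112 (30.4%) were lower with an unadjusted p under 0.05, beside 13.5% of all genes. In ASR and in DSR rats 1 (0.893%) was lower, beside 2.78% and 2.11% of all genes. A difference among the 3 phenotypes at an unadjusted p under 0.05 was seen in 37 of these 112 genes (33.0%), beside 2594 of all 16127 genes (16.1%). None of the 2594 had an adjusted p under 0.05 in edgeR.

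**Figure D4:**
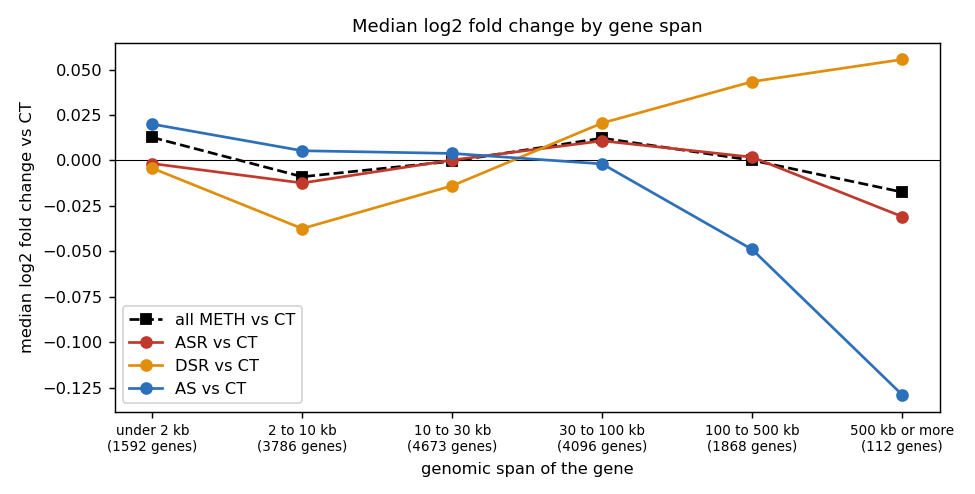
Median log2 fold change against CT rats (y axis) of genes grouped by genomic span (x axis), for all METH rats (black squares, dashed) and for ASR, DSR and AS rats. The pooled line stays near 0 while DSR reaches 0.0556 and AS reaches -0.129 in genes of 500 kb or more.

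Some genes of the pooled comparison also differed among the METH phenotypes. Of the 795 genes lower in the pooled comparison, 178 (22.4%) had an unadjusted p under 0.05 among ASR, DSR and AS rats. Of the 530 higher genes 59 (11.1%) did, beside 16.1% of all genes. Among all genes this share was 10.3% under 4 CPM and 22.1% at 64 CPM or more. The lower genes were more highly counted than the higher ones, and level and direction were not separated here. The lower genes had median log2 fold changes against CT of -0.23 in AS, -0.16 in ASR and -0.11 in DSR rats. The higher genes had 0.32 in AS, 0.22 in ASR and 0.21 in DSR rats. In each phenotype the median kept the direction of the pooled choice, which the choice itself favours.

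By chromosome, the shares are set beside 4.93% lower and 3.29% higher over all genes. On chromosome 12, 38 of 534 genes (7.12%) were lower and 5 (0.936%) higher. On chromosome 7, 78 of 1020 genes (7.65%) were lower and 34 (3.33%) higher. Chromosome 10 had 85 of 1343 (6.33%) lower and 27 (2.01%) higher, and chromosome 1 had 126 of 2017 (6.25%) and 61 (3.02%). At 16 CPM or more, 35 of 318 genes of chromosome 12 (11%) and 62 of 578 of chromosome 7 (10.7%) were lower, beside 593 of 8534 such genes overall (6.95%). Higher genes outnumbered lower ones on chromosome 11, with 23 of 401 (5.74%) against 16 (3.99%), and on chromosome 2, with 53 of 1044 (5.08%) against 37 (3.54%). The same held on chromosome X, with 26 of 543 (4.79%) against 15 (2.76%), and on chromosome 6, with 29 of 730 (3.97%) against 17 (2.33%). It also held on chromosome 18, with 16 of 426 (3.76%) against 13 (3.05%). The shares of higher genes on chromosomes 6 and 18 lay near the 3.29% of all genes. Under 16 CPM, 33 of 514 genes of chromosome 2 (6.42%) were higher, beside 325 of 7593 such genes overall (4.28%). None of the 30 mitochondrial genes tested had an unadjusted p under 0.05. Their median log2 fold change was 0.14 over all METH rats, 0.14 in ASR, 0.15 in DSR and 0.14 in AS rats. The median log2 deviation of mitochondrial genes from their mean over all rats overlapped between the arms. It ran from -0.197 to 0.0488 in CT rats and from -0.262 to 0.577 in METH rats. The value of 0.577 was that of AS rat Grp7-R1, and the other AS rats lay between -0.209 and -0.00675. These chromosomes were picked after their counts were seen.

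The number of genes set apart from CT depended on which METH rats were pooled. Without the 5 DSR rats, 2449 genes (15.2%) had an unadjusted p under 0.05 and 1 gene, none of the 4 described, had an adjusted p under 0.05 (0.0439). Without the 6 ASR rats there were 1114 genes (6.91%). Without the 6 AS rats there were 737 (4.57%), fewer than the 806 that make up 5% of the genes tested, and 54.3% of them were higher in METH rats in place of 40%. Leaving out single rats moved the count between 977, without CT rat Grp8-L11, and 2004, without CT rat Grp7-R5. Among METH rats, the largest move came from DSR rat Grp7-R7, without which there were 1889. Rats whose code holds 7 (9 METH, 4 CT) gave 541 genes (3.35%) by themselves, and those with 8 (8 METH, 2 CT) gave 693 (4.3%). What the numbers 7 and 8 stand for is not explained in the sources used here. With the mitochondrial share as a covariate the count was 914. It was 1332 with every library thinned to the smallest total.

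**Figure D5:**
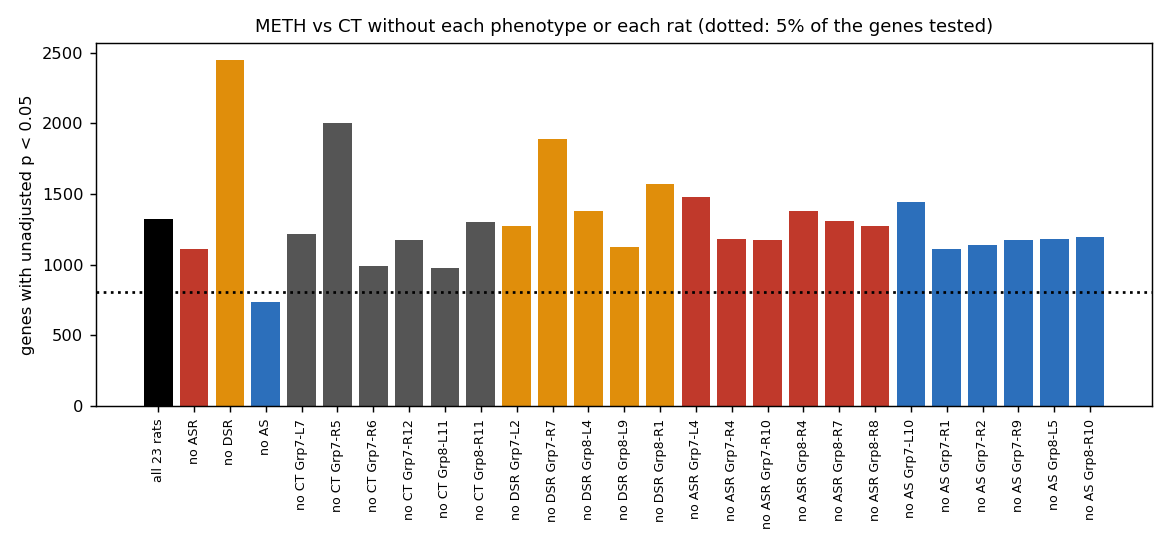
Number of genes with an unadjusted p under 0.05 in METH vs CT (y axis, from 0) with all 23 rats, without each METH phenotype, and without each rat (x axis). The count is 1325 with all rats, 2449 without DSR rats and 737 without AS rats, and the dotted line marks 5% of the genes tested, 806.

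The METH arm, with its 3 phenotypes, was about as spread as the CT arm. The median SD of log2 CPM over genes was 0.193 in 17 METH rats and 0.2 in 6 CT rats, and 46.4% of genes had the larger SD in METH rats. Within phenotypes the median SD was 0.17 in ASR, 0.18 in DSR and 0.163 in AS rats, each below that of the CT rats.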

How the data were processed

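The authors trimmed paired-end reads (Trimmomatic 0.36), aligned them to Rnor6.0 with STAR 2.5.2b and counted unique reads in exons with featureCounts of Subread 1.5.2. They deposited raw counts per gene for each library. Whether counting used strand is not given in the sources used here. Rats were grouped by their labels. The comparison, its members and its gene lists were chosen with earlier results of these data known.

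From the counts, TMM factors, CPM (counts divided by the scaled library total) and fold changes were computed in R 4.3.3. Genes passing filterByExpr (minimum count 10, minimum total 15) were tested with edgeR 4.0.16, in a quasi-likelihood fit of 2 arms (21 residual degrees of freedom). P-values were adjusted by the Benjamini-Hochberg method across the 16127 genes tested. A fit of 4 groups (19 degrees of freedom) gave each phenotype vs CT and differences among phenotypes. Principal components and permutation tests used log2 CPM with a prior count of 2. The scripts were tested on simulated data. The alternatives were DESeq2 1.42.0, limma 3.58.1 (voom with quality weights), RLE factors, no filter, covariates, each code number alone, and each phenotype or rat left out. Thinned libraries, mitochondrial genes left out and unscaled ranges were added after seeing the data. The groupings of genes by level, span and chromosome were not planned.

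The planned rule named genes by p and by symbol lists, such as dopamine receptors, neuropeptides and cell type markers. The reference table held 0 Ensembl identifiers, so these lists were not analysed here, and the 4 identifiers were chosen after their values were seen. With 18967015 to 28137676 counts per library, a gene near 1 CPM rests on few reads, and its fold change carries counting error. P-values measure the spread between single libraries of separate rats.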

Additional observations from a re-analysis of the deposited data

Results flagged for a closer look

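Dixon's test for a value far from the rest of its group was applied to 52 sets of values, and 4 were marked, where about 2.6 would be by chance. Among CT rats, 20398 genes were detected (1 count or more) in Grp7-R6, and 20024 to 20122 in the other 5. METH vs CT gave 992 genes with an unadjusted p under 0.05 when it was left out. Among AS rats, the mitochondrial chromosome took 19.58% of the counts of Grp7-R1 and 11.92 to 13.29% in the other 5. The median log2 deviation of mitochondrial genes in Grp7-R1 from their mean over all rats was 0.577, against -0.209 to -0.00675 in the others. METH vs CT gave 1114 such genes when Grp7-R1 was left out. ENSRNOG00000022307 stood at 149 CPM in AS rat Grp7-L10 and at 124 to 129 CPM in the other 5 AS rats. Without that rat its log2 fold change in METH vs CT was -0.22.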

How the results depend on the processing

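No paired analysis was possible because no rat code is shared between groups. The log2 fold changes of the 4 identifiers kept their direction in every alternative and stayed at an unadjusted p under 0.05 in all but 1, ENSRNOG00000006151 in rats with code 8 (0.79). The 4 were chosen by their p in these same libraries, so the choice itself favours this and it is no independent check. Of the counts of genes, 92 of 127 stayed within 1.5 times under the alternatives and 279 of 299 with 1 rat left out. The cause of the other moves was not tested.

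All counts here are at an unadjusted p under 0.05 unless said otherwise. Without a filter on low counts, 856 genes were higher, 399 were at least 1.5-fold higher and 472 at least 1.5-fold lower, and ASR vs CT gave 1223 and DSR vs CT 1150 in place of 794 and 740. That setting tested 25593 genes. With the mitochondrial share as a covariate, 522 were lower and 44 at least 1.5-fold lower. Rats with code 7 alone gave 541, of which 276 were higher and 265 lower. Rats with code 8 alone gave 693 (4.3% of genes tested), with 430 higher and 263 lower, beside 530 and 795 over all rats. Of the 693, 168 were at least 1.5-fold higher and 45 at least 1.5-fold lower. Without DSR rats there were 2449, with 951 higher, 1498 lower, 175 and 199 past 1.5-fold, and 1 with an adjusted p under 0.05. Without AS rats there were 737, with 337 lower and 42 at least 1.5-fold lower. limma voom gave 1211 lower and 193 at least 1.5-fold lower.

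Leaving out 1 rat at a time gave 977 to 2004 genes, 449 to 882 higher (882 without CT rat Grp7-R5) and 497 to 1160 lower, with 0 at an adjusted p under 0.05 each time. The lower genes were fewest without CT rat Grp7-R6 (497), and 528 without CT rat Grp8-L11. Past 1.5-fold there were 79 to 175 higher genes and 51 to 129 lower, with the 175 without CT rat Grp7-R5 and the 129 without DSR rat Grp7-R7 (107 without CT rat Grp7-R5). Differences among phenotypes numbered 1450 to 3907, lowest without DSR rat Grp7-R7 and highest without DSR rat Grp8-L9. They numbered 1616 without AS rat Grp7-R2 and 1687 without AS rat Grp7-R9. At an adjusted p under 0.05 they numbered 0 to 4, with 4 without AS rat Grp7-L10. The phenotypes gave 559 to 1250 (ASR vs CT, highest without CT rat Grp7-R5), 603 to 1253 (DSR vs CT, highest without CT rat Grp8-L11) and 2406 to 4751 (AS vs CT).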
